A study of Mus musculus with 384 samples.

Results

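Csf1r encodes the receptor for macrophage colony-stimulating factor (M-CSF), and the series measured it with 1 of 96 TaqMan assays, the one deposited under the name CD115. The assay was taken by that name in all 384 wells, and a cell was counted as Csf1r-positive if its product crossed the detection threshold before cycle 28 (Ct below 28; Ct falls as cDNA increases, and 40 in the file is read as no product). By this rule 77 single cells were positive and 270 were negative, of all single cells that passed quality control. The cells were common lymphoid progenitors (CLPs) from the bone marrow of wild-type (wt) C57/Bl6 mice, sorted by surface staining as Lin- B220- Flt3+ Il7r+ with Kitlow and Sca1low, with no treatment of the animals given in the labels. The 4 plates, P0 to P3, held 360 wells with 1 cell, 4 wells with 10 cells, 4 wells with 20 cells and 16 wells without reverse transcription (no-RT). Plates served as the replicates (n = 4). The sources used here give neither the age and number of the mice nor which plate held cells of which mouse, so p-values measure the plate-to-plate spread alone, which can be of technical origin.

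The M-CSF receptor is a receptor tyrosine kinase, bound by M-CSF and by interleukin 34, and it supports the survival, proliferation and differentiation of monocytes and macrophages. Its transcription depends on the myeloid and lymphoid factor PU.1 (gene Spi1), and in B cells the gene is kept silent by Pax5. CLPs are mainly a source of B, T, natural killer and innate lymphoid cells, and in mouse marrow Ebf1 and the surface protein Ly6d mark those that have started B cell specification.

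Between 22 and 54 of the 96 assays gave a product in each cell that passed (median 43), and between 1 and 9 in each no-RT well. Of the sort markers only Kit was on the panel, and it gave a product in 72 of 77 Csf1r-positive and in 98.5% of Csf1r-negative cells. Of the other CLP markers on the panel, Ikzf1 gave a product in 76 of 77 positive and in all 270 negative cells, and Notch1 in 72 of 77 and in 99.6%. The T cell genes Cd3e and Cd2 and the natural killer gene Tbx21 gave none in any cell. The other T markers on the panel did give products, Cd4 in 10.9%, Cd5 in 9.8% and Cd8a in 0.57% of cells (means over plates). So did the other natural killer markers, Klrb1c in 13.3% and Cd244a in 90.8%. Before the results that follow, 5 Csf1r-positive cells stand apart: they had no product for Kit or Notch1 and are described at the end. Several values are given with and without them, and the others include them.

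Csf1r was detected at nearly the same frequency on every plate. It gave a product in 18 of 86 cells on P0 (20.9%), 22 of 87 on P1 (25.3%), 18 of 87 on P2 (20.7%) and 19 of 87 on P3 (21.8%). The mean was 22.2% ± 2.1 (SD, n = 4 plates), and no plate lay outside the exact 95% interval of another, the widest of which ran from 16.6% to 35.7% on P1. None of the 16 no-RT wells gave a Csf1r product, which allows a share of up to 20.6% by the exact 95% limit, just under the lowest plate at 20.7%. That limit pools all 16 wells, while each plate held 4. The exact interval of that plate, P2, ran from 12.7% to 30.7% and so reached below the limit. After an arcsine transformation of square-rooted shares, cells were above no-RT wells by 0.49 (SE 0.012, limma adjusted p = 1.05e-08 over 88 assays), as were 84.1% of these assays. The no-RT wells were at 0 on every plate and so add no spread, and this SE and p leave out their counting error, which the exact limit holds. Among the 96 assays Csf1r ranked 56th by mean share. Its neighbours were Itgax at 23.0% ± 3.3, CD90.2 at 22.8% ± 5.1 and Tnfsf8 at 21.6% ± 5.1, and the plate ranges of all 4 overlapped, so this order is not resolved.

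The Ct of the positive cells had a narrow centre and a few stragglers. It ran from 12.2 to 25.7 with a median of 16.2, and 51 of the 77 cells lay between 15 and 17. There were 3 cells below 13 and 4 at or above 18, with values of 18.4, 19.8, 22.8 and 25.7. No single cell had a Csf1r value between 28 and 40, so the threshold of 28 fell in an empty range: the nearest positive cell was at 25.7 and all 270 negative cells were at 40. The plate medians were 16.2 on P0, 16.3 on P1, 15.7 on P2 and 16.7 on P3 (mean 16.2 ± 0.43, n = 4 plates), a spread smaller than the SD among cells of a plate, which averaged 1.80 cycles.

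**Figure D1:**
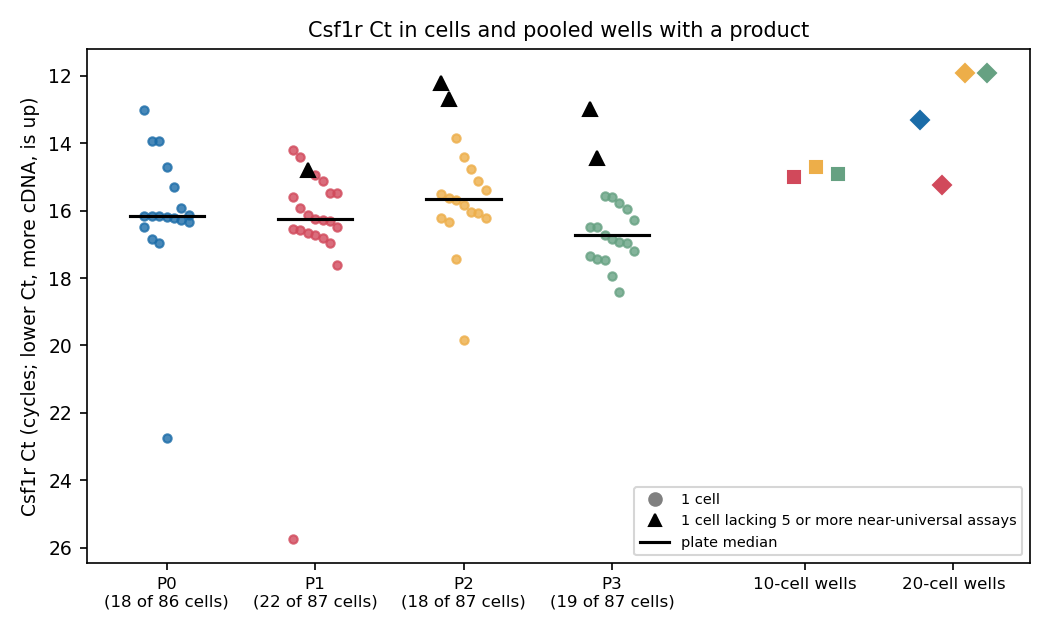
Each circle or triangle is the Csf1r Ct of 1 positive cell (y axis in cycles, turned so that more cDNA is up), by plate, with the plate median as a bar. Squares and diamonds are the 10-cell and 20-cell wells with a product, in the colour of their plate; the 10-cell well of P0 had none and is not drawn. Most cells lie near the plate medians of 15.7 to 16.7, and the 5 triangles, cells lacking 5 or more near-universal assays, lie at 12.2, 12.7, 13.0, 14.4 and 14.8.

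The pooled wells gave Csf1r in 7 of 8 cases. The 10-cell wells had no product on P0 and Ct values of 15.0, 14.7 and 14.9 on P1, P2 and P3. The 20-cell wells had Ct values of 13.3, 15.2, 11.9 and 11.9 on P0 to P3. From the share and level of the single cells of each plate, a 10-cell well was expected to hold at least 1 positive cell in 90.2% to 94.6% of draws and a 20-cell well in 99.03% to 99.7%. Measured Ct minus expected Ct was 0.67 ± 0.45 cycles in the 3 10-cell wells with a product and -0.11 ± 1.5 cycles in the 4 20-cell wells. The 10-cell well of P0 had a product for 29 assays, against 68 to 71 in the other 10-cell wells, so its missing Csf1r product came with a low yield over the panel. In a pooled well, more positive cells and more RNA per positive cell cannot be told apart.

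The yield of Csf1r-positive and Csf1r-negative cells differed by less than the test could call. The median number of other assays with a product was 43.5, 41.5, 41.5 and 40 in positive cells of P0 to P3, against 43, 42, 42 and 43 in negative cells. The difference of -0.875 assays was within the spread between plates (exact two-sided permutation test, p = 0.429, adjusted p = 0.429 over 2 comparisons). It was -0.167 without P3, -1.33 without P0 and -0.25 without the 6 cells described at the end. This test leaves out the pairing of both kinds of cells by plate, and the smallest p it allows is 0.0286. The mean level of the 4 reference genes, as 28 minus Ct, was 15.35 ± 0.28 in positive and 15.15 ± 0.13 in negative cells (exact two-sided permutation test, p = 0.286, adjusted p = 0.429; higher on 3 of 4 plates). This difference of 0.20 was 0.09 without P2.

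Ebf1 and Ly6d, the transcripts of early B cell specification, and Il2rb were found less often in Csf1r-positive cells. Of the 48 assays whose detection could be compared, these 3 passed the test and 0 passed as more frequent. The measure was the log2 odds ratio of detection within a plate, tested over 4 plates by limma with p-values adjusted over all 1176 pairs of the panel. Over those 1176 pairs 1.62% were called negative and 2.98% positive, against 3 and 0 of the 48 pairs with Csf1r. At an unadjusted p under 0.05 the counts with Csf1r were 6 negative and 4 positive. A fit over the 48 pairs alone called 5 negative (10.4%) and 2 positive (4.17%), those 3 among them. The median log2 odds ratio with Csf1r was -0.10, against 0.11 over all pairs.

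Ebf1, the transcription factor that starts the B cell programme, gave a product in 10 of 18, 13 of 22, 6 of 18 and 9 of 19 Csf1r-positive cells on P0 to P3. Among Csf1r-negative cells it was found in 58 of 68, 51 of 65, 51 of 69 and 58 of 68. The shares were 48.8% ± 11.4 and 80.7% ± 5.6 (n = 4 plates) and did not overlap, the highest positive plate being lower than the lowest negative plate. The log2 odds ratio was -2.13 ± 0.57 (SE 0.43, limma adjusted p = 0.0188), and it was below 0 on 4 of 4 plates. Seen from the other side, 14.8% of cells with Ebf1 had Csf1r.

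Ly6d, a surface protein that appears on CLPs with B cell specification, followed the same order. It gave a product in 8 of 18, 14 of 22, 7 of 18 and 8 of 19 Csf1r-positive cells, and in 49 of 68, 52 of 65, 51 of 69 and 55 of 68 Csf1r-negative cells. The shares were 47.3% ± 11.1 and 76.7% ± 4.4 and did not overlap, with P1 the highest of the positive plates. The log2 odds ratio was -1.85 ± 0.56 (limma adjusted p = 0.0342).

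Il2rb, the receptor chain shared by interleukin 2 and interleukin 15 that natural killer cells depend on, was rare among Csf1r-positive cells. It gave a product in 1 of 18, 2 of 22, 0 of 18 and 0 of 19 of them, and in 12 of 68, 14 of 65, 9 of 69 and 12 of 68 Csf1r-negative cells. The shares were 3.66% ± 4.5 and 17.5% ± 3.5 and did not overlap. The log2 odds ratio of -2.06 ± 0.92 (limma adjusted p = 0.032) depends on the 0.5 added to empty cells of the table on P2 and P3.

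The calls for these 3 genes need all 4 plates. With any 1 plate left out, Ebf1 stayed between -2.41 and -1.97 with adjusted p from 0.0537 to 0.113, Il2rb between -2.34 and -1.70 with adjusted p from 0.0551 to 0.159, and Ly6d between -2.07 and -1.64 with adjusted p from 0.074 to 0.152. Without the 6 cells that lack near-universal transcripts, described at the end, Ebf1 (-1.95, adjusted p = 0.033) and Il2rb (-1.96, adjusted p = 0.0402) passed and Ly6d did not (-1.66, adjusted p = 0.0591).

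**Figure D2:**
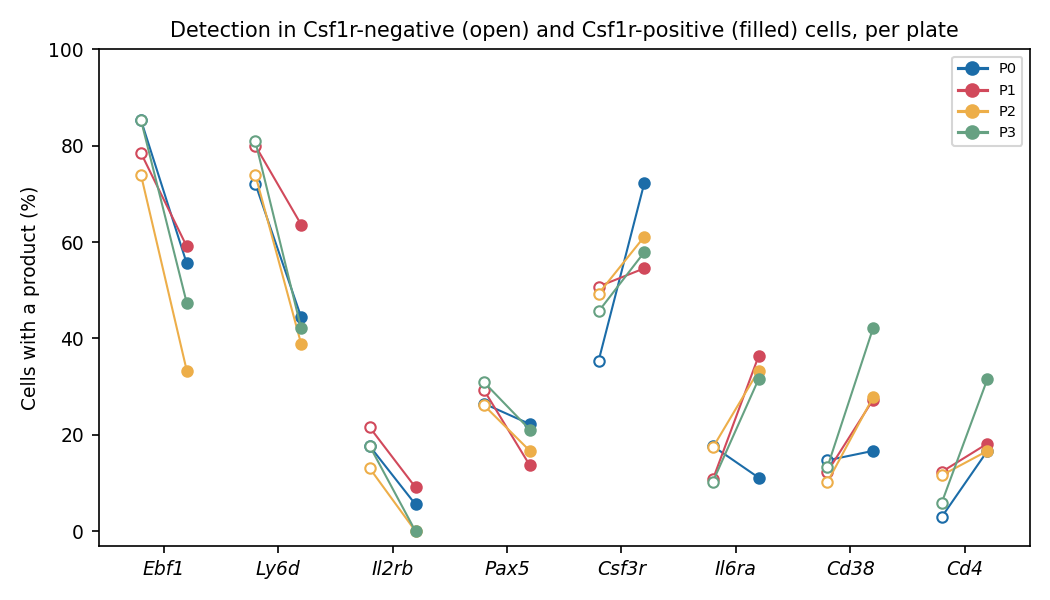
Share of cells with a product (y axis, percent) for 8 genes in Csf1r-negative cells (open circles) and Csf1r-positive cells (filled circles), with 1 line for each plate. The lines for Ebf1, Ly6d, Il2rb and Pax5 fall on all 4 plates, and those for Csf3r, Cd38 and Cd4 slope up on all 4 plates. Of the 8 genes only Ebf1, Ly6d and Il2rb passed the test.

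No other B lineage gene on the panel passed. Pax5, the factor that commits cells to the B lineage, gave a product in 4, 3, 3 and 4 Csf1r-positive cells and in 18, 19, 18 and 21 Csf1r-negative cells, or 18.4% ± 4.0 and 28.2% ± 2.3. The plate shares did not overlap, but the log2 odds ratio of -0.69 ± 0.40 did not pass (limma adjusted p = 0.454). Cd72, a B cell coreceptor, was at 90.7% ± 5.2 and 91.4% ± 2.4 (log2 odds ratio -0.26, adjusted p = 0.869). Of the 9 B lymphoid genes on the panel 4 could be tested, 2 were called lower and all 4 had a log2 odds ratio below 0 (median -1.27, against -0.10 over the 48 pairs). Without the 6 cells described at the end, the log2 odds ratio of Cd72 was 1.03 and Ly6d did not pass, so this shared direction depends on them. Among those outside the tested range, Spib was found in 2 of 77 positive and 5 of 270 negative cells, and Lef1 in 1 and 5. The assay FOX01, whose name matched no gene symbol, was at 71.0% ± 13.4 and 85.6% ± 4.7 (adjusted p = 0.212).

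Sorted by B lineage stage, Csf1r was most frequent in cells with none of the 3 genes. It gave a product in 7 of 16, 5 of 11, 11 of 21 and 7 of 14 cells without Ebf1, Ly6d or Pax5 on P0 to P3, or 47.9% ± 4.0. In cells with either Ebf1 or Ly6d and no Pax5 it was found in 17 of 66 (25.8% ± 13.9), with P2 lowest at 6.25% and P3 highest at 38.5%. In cells with both Ebf1 and Ly6d and no Pax5 it was found in 3 of 33, 7 of 32, 3 of 29 and 3 of 35 (12.5% ± 6.3), and in cells with Pax5 in 14 of 90 (15.5% ± 2.0). These classes restate the pairs above, so no test was made. The cells without any of the 3 genes made up 39.0% of Csf1r-positive and 11.9% of Csf1r-negative cells. The median Csf1r Ct was 15.7 in the positive cells of that class, with a range from 12.2 to 22.8, and 16.2 to 16.3 in the others. All 5 cells that stand apart were in the class with none of the 3 genes. Without them Csf1r was found there in 25 of 57 cells (43.2% ± 3.2), which made up 34.7% of positive cells, and the median Ct was 16.2 with a range from 13.8 to 22.8. The 14 cells with both Csf1r and Pax5 had Ct values from 14.2 to 18.4.

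**Figure D3:**
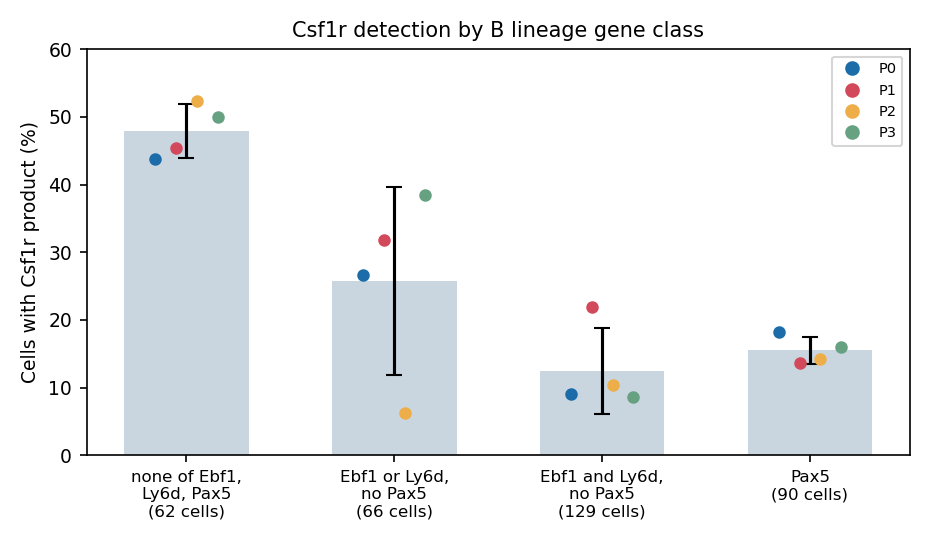
Share of cells with a Csf1r product (y axis, percent) in 4 classes of cells by detection of Ebf1, Ly6d and Pax5; bars are the mean and error bars the SD over 4 plates, and points are the plates. The plates lie at 43.8% to 52.4% in the class with none of the 3 genes, and no plate is above 21.9% in the classes with Pax5 or with both Ebf1 and Ly6d.

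Myeloid genes gave no call in either direction. Csf3r, the receptor for granulocyte colony-stimulating factor, was found in 13, 12, 11 and 11 Csf1r-positive cells and in 24, 33, 34 and 31 Csf1r-negative cells, or 61.4% ± 7.7 and 45.2% ± 7.0. The plate shares did not overlap and the log2 odds ratio of 0.93 ± 0.85 was above 0 on 4 of 4 plates, but it did not pass (limma adjusted p = 0.339). The 47 cells with both receptors compare with 37.6 expected from the shares. Il6ra, the interleukin 6 receptor, was found in 2, 8, 6 and 6 positive and in 12, 7, 12 and 7 negative cells, so that P0 ran against the other plates (log2 odds ratio 1.22 ± 1.24, adjusted p = 0.252). Gfi1, a repressor active in granulocyte and lymphoid precursors, was at 75.4% ± 7.3 and 73.7% ± 4.6 (0.08, adjusted p = 0.956). Klf4, a factor that promotes monocyte differentiation, was at 9.5% ± 8.1 and 15.6% ± 7.0 (-0.88, adjusted p = 0.52). The 4 tested myeloid genes had a median log2 odds ratio of 0.50, with 3 above 0 and 1 below.

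Of the factors that bind the Csf1r gene, Spi1 gave a product in 77 of 77 positive cells and in 98.5% of negative cells, so its detection did not separate the groups. Cebpa, a factor of granulocyte and monocyte precursors, was at 43.9% ± 5.4 and 33.0% ± 4.4, but 7 of 16 no-RT wells gave a product for it and it was not tested. The same holds for Cd68, a lysosomal protein of macrophages (48.7% ± 26.8 and 53.8% ± 16.5; 11 no-RT wells), and for Fut4 (84.3% ± 10.6 and 86.4% ± 9.5; 12 no-RT wells). Neither Csf1 nor Il34 could be matched to an assay.

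With cells split by both Ebf1 and Csf3r, Csf1r was found in 30 of 75 cells with Csf3r and no Ebf1 (40.9% ± 7.0) and in 9 of 16 with neither; without the cells that stand apart these were 28 of 73 (39.3% ± 7.0) and 6 of 13. It was found in 17 of 94 cells with both (18.3% ± 7.2) and in 4 of 46, 8 of 40, 3 of 34 and 6 of 42 cells of P0 to P3 with Ebf1 and no Csf3r (13.0% ± 5.4). Csf1r was thus lower in cells with Ebf1 at either state of Csf3r, as a description without a test.

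No dendritic cell gene passed the test. Id2, a regulator needed for innate lymphoid and some dendritic cells, was found in 7, 16, 8 and 9 Csf1r-positive cells and in 21, 32, 30 and 29 negative ones, or 50.9% ± 15.0 and 41.6% ± 7.7 (log2 odds ratio 0.56, adjusted p = 0.582). Itgax, which encodes CD11c, was at 25.8% ± 8.3 and 22.2% ± 3.8 (0.31, adjusted p = 0.807). Bst2, high on plasmacytoid dendritic cells, was at 86.4% ± 12.8 and 82.2% ± 1.4 (0.79, adjusted p = 0.603). Cd86, a costimulatory ligand, was at 27.1% ± 8.3 and 33.3% ± 4.6 (-0.39, adjusted p = 0.736). None of the 4 was called, and their median log2 odds ratio was 0.44.

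Among the other growth factor and cytokine receptors, Il3ra was found in 12 positive and 53 negative cells (15.8% ± 5.0 and 19.6% ± 4.7, log2 odds ratio -0.26, adjusted p = 0.845). Il2rg, the common cytokine receptor chain, was outside the tested range and was found in 71 of 77 positive cells and in 98.5% of negative cells. Of the Toll-like receptor partners, Ly86 was at 62.1% ± 8.6 and 53.0% ± 3.7 (0.52, adjusted p = 0.596) and Cd180 at 76.8% ± 9.5 and 79.6% ± 4.3 (-0.25, adjusted p = 0.866).

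By the size of the log2 odds ratio, with the same sign on all 4 plates, the assays most like Csf1r were Cd4, Cd38, Itgb7, Csf3r and Id2. Cd4, a T cell coreceptor that is also present on some dendritic cells and macrophages, was found in 3, 4, 3 and 6 positive and in 2, 8, 8 and 4 negative cells, or 20.8% ± 7.2 and 8.18% ± 4.5 (1.70 ± 1.14, adjusted p = 0.0911). Cd38, a surface enzyme that consumes NAD, was found in 3, 6, 5 and 8 positive and in 10, 8, 7 and 9 negative cells, or 28.5% ± 10.4 and 12.6% ± 1.9 (1.43 ± 0.80, adjusted p = 0.115). Plate shares did not overlap for either, and both passed when 1 was added in place of 0.5 (adjusted p = 0.0165 and 0.0327). Itgb7, an integrin chain of gut homing, was found in 9 positive and 17 negative cells (1.07 ± 0.38, adjusted p = 0.215). In the other direction, the assays after the 3 that passed were Cd244a, a receptor of natural killer cells (83.4% ± 5.0 and 93.0% ± 4.0; -1.56, adjusted p = 0.133), and CD278 (44.2% ± 8.8 and 58.9% ± 1.3; -0.84, adjusted p = 0.353). Cd34, a surface protein of stem and progenitor cells, was named after its values were seen, since some alternatives call it. It was found in 17, 21, 16 and 14 positive and in 64, 61, 68 and 67 negative cells, or 88.1% ± 10.0 and 96.3% ± 2.6 (-1.78 ± 2.00, adjusted p = 0.184), with P1 just above 0; 5 of the 9 positive cells without it are the cells that stand apart. In all, 6 pairs with Csf1r were above 0 and 7 below 0 on all 4 plates, against 13.7% and 8.5% of all pairs. For 8 of the 48 assays (16.7%) the plate shares did not overlap: Ebf1, Ly6d, Il2rb, Pax5, CD278, Csf3r, Cd38 and Cd4.

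**Figure D4:**
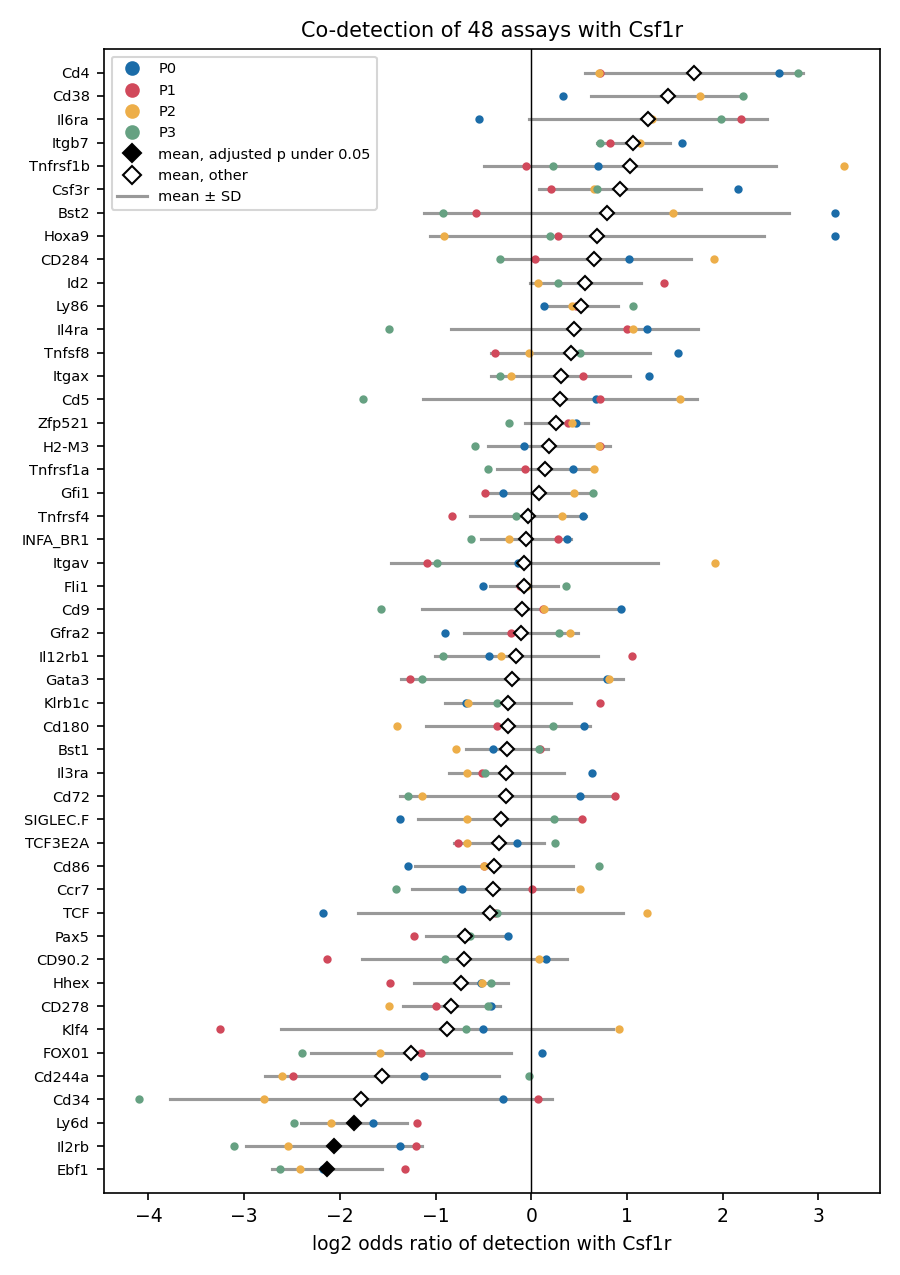
Log2 odds ratio of detection with Csf1r (x axis) for 48 assays, ordered by their mean; small points are the 4 plates, diamonds the mean and grey lines the SD. Only the diamonds of Ebf1, Il2rb and Ly6d, at -2.13, -2.06 and -1.85, are filled as past the threshold; Cd4 at 1.70 is the highest mean.

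Where both kinds of cells had a product, no difference in its level passed the test. Of 39 assays with enough cells, 0 were called higher and 0 lower in Csf1r-positive cells by limma (0.0% of those tested; without adjustment 2 higher and 1 lower had a p under 0.05), and the lowest adjusted p was 0.289. Bcl11a, a factor needed for lymphoid development, had a level (28 minus Ct) of 13.80 ± 0.31 in positive and 13.24 ± 0.26 in negative cells and was higher on 4 of 4 plates (difference 0.56, SE 0.20, adjusted p = 0.317). Mef2c, a factor of lymphoid progenitors, differed by 0.37 and Selplg, the selectin ligand, by 0.18, both higher on 4 of 4 plates (adjusted p = 0.514 and 0.808). Cd72 was at 12.32 ± 0.19 and 12.90 ± 0.22, lower on 4 of 4 plates (difference -0.58, adjusted p = 0.317). Id2, chosen after its values were seen, differed by 0.98 cycles (adjusted p = 0.289), higher on 3 of 4 plates and not on P1. It passed only without P1 (1.33, limma adjusted p = 0.0178), the plate that ran against the others, and not without P0, P2 or P3 (adjusted p = 0.298, 0.533 and 0.677) or without the 6 cells (0.71, adjusted p = 0.197).

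Among the positive cells, the Csf1r level was set against the yield and the other levels. Spearman's rho was -0.01 with the number of other products and 0.19 with the mean reference level (77 cells). Both values include the 5 cells that stand apart, with a median Csf1r Ct of 13.0 and 22 to 39 products. The other positive cells had medians of 16.2 and 43.5, and rho was not computed without the 5. The assays with the highest rho were INFA_BR1 (0.69 over 28 cells), CD278 (0.60 over 34 cells) and Mef2c (0.45 over 69 cells), as a description over cells that share plates. Every assay for which it was computed had a positive rho, the lowest being 0.02 for Ebf1. The reference genes Tfrc and Hprt were at 0.23 and 0.22, so a positive rho was not particular to the assays named.

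The levels of the marker lists, summed per cell and averaged per plate, are given beside these results, and their part in them was not tested. These sums include the 5 cells that stand apart and were not computed without them. The plate ranges did not overlap for the granulocyte list and overlapped for the other 4. Granulocyte markers (Csf3r and Cebpa, 2 of 4 on the panel) summed to 8.74 to 10.2 over the plates in Csf1r-positive and 5.55 to 6.83 in negative cells; Csf3r did not pass the test of detection and Cebpa gave products in no-RT wells. T markers (all 5 on the panel, Cd3e and Cd2 at 0) summed to 2.16 to 5.29 and 0.795 to 2.74, and natural killer markers (3 of 4, Tbx21 at 0) to 11.2 to 12.3 and 12.1 to 14.6. Dendritic markers (Itgax and Bst2, 2 of 5) summed to 11.1 to 16.2 and 12.3 to 13.8. Of the 7 monocyte and macrophage markers beside Csf1r, only Cd68 was on the panel (1.13 to 7.29 and 3.05 to 6.62).

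The 5 Csf1r-positive cells that stood apart held the 3 lowest Csf1r Ct values. They were chosen after their values were seen, because they lacked 5 to 8 of the 16 assays found in over 95% of cells, while 61 of the other 72 positive cells lacked 0, 10 lacked 1 and 1 lacked 2. Of the 5, 1 was on P1, 2 on P2 and 2 on P3. Their Csf1r Ct values were 14.8 on P1, 12.2 and 12.7 on P2, and 14.4 and 13.0 on P3, so that they held ranks 1, 2, 3, 11 and 14 of 77, and their median of 13.0 compares with 16.2 in the other 72. They had a product for 22 to 39 assays, against a median of 43.5.

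All 5 lacked Kit, Notch1, Bcl11a and Mef2c, of which the first 3 were found in 72 of 72 other positive cells and Mef2c in 69. These 4 are among the 16 assays whose absence chose the cells, so this contrast is in part fixed by the choice. They also lacked Cd34, Hoxa9, Ebf1, Ly6d, Gfi1, Cd72 and Cd244a. All 5 had CD64A_B, an assay named for CD64, the high-affinity receptor for immunoglobulin G of monocytes and macrophages, which 0 of the other 72 positive and 4 of 270 negative cells had. Vcam1, an adhesion molecule of stroma, endothelium and some macrophages, was found in 4 of the 5 and in none of the other 72 positive or 270 negative cells. Pirb, an inhibitory receptor of myeloid and B cells, was found in 4 of the 5, in 3 of the other 72 and in 1 of 270. All 5 had Id2, Ly86, Cd180, Cd86 and Gfra2, 4 had Cd38 and Itgav, and 3 had Cd4. Cd68 was found in 1 of the 5, against 35 of the other 72 positive and 54.1% of negative cells, with products in 11 of 16 no-RT wells. Csf3r was found in 2 of the 5, Itgax in 1 and Il6ra in 0. The 5 cells thus went against the sort label at the transcript of Kit, an assay used to choose them, and they are given no cell type name. The sixth cell lacking 4 or more of the 16 assays was Csf1r-negative, on P0, with a reference level of 2.83.

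CD64A_B and Vcam1 both gave a product in the 20-cell wells of P2 and P3, which had the lowest Csf1r Ct of the 8 pooled wells (11.9 each), and in none of the other 6. The single-cell wells that failed quality control included 2 with Csf1r; both had Vcam1 and neither had CD64A_B, Pirb or Kit.

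Without the 6 cells, Csf1r was found in 21.1% ± 2.4 of cells, and 2 of the 3 calls held, as given above. Ebf1 was then at 52.0% ± 10.4 of positive and 80.7% ± 5.5 of negative cells. Cd4 was at 18.3% ± 3.9 and 8.19% ± 4.5 (log2 odds ratio 1.52, adjusted p = 0.141) and Cd38 at 25.2% ± 7.7 and 12.7% ± 2.0 (1.22, adjusted p = 0.202). The log2 odds ratio of Cd244a moved from -1.56 to -0.66 and that of Cd72 from -0.26 to 1.03 (adjusted p = 0.7 and 0.345); all 5 cells lacked both. Gfi1 moved from 0.08 to 0.66, Cd86 from -0.39 to -0.71, Cd180 from -0.25 to -0.41, Id2 from 0.56 to 0.35 and Il3ra from -0.26 to -0.15, and none of these passed (adjusted p from 0.491 to 0.908).

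**Figure D5:**
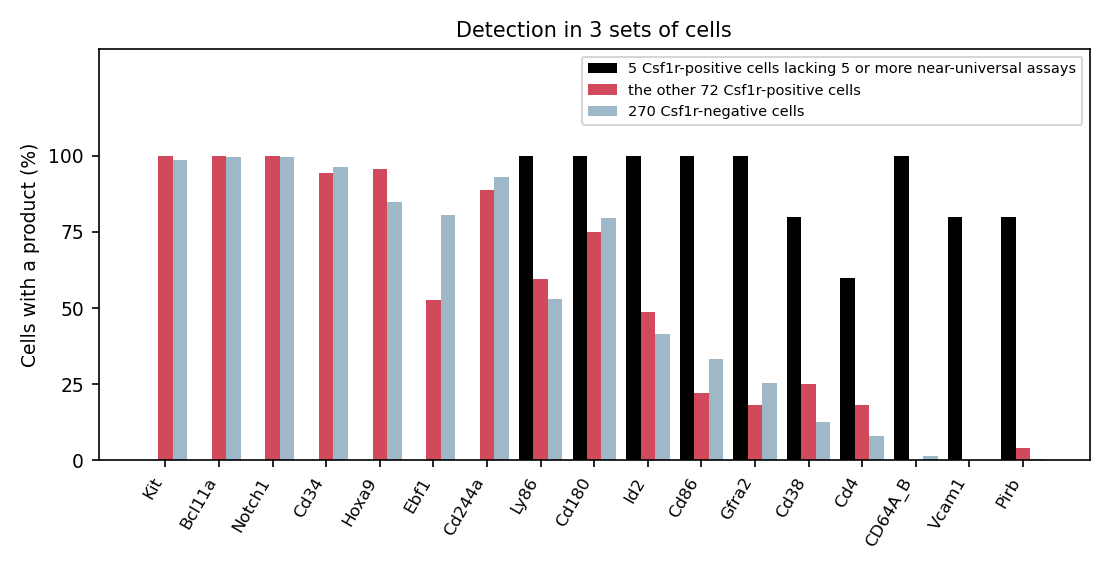
Share of cells with a product (y axis, percent) for 17 assays in the 5 Csf1r-positive cells that lacked 5 or more near-universal assays (black), the other 72 Csf1r-positive cells (red) and 270 Csf1r-negative cells (blue). The black bars are at 0 from Kit to Cd244a and tallest for the assays from Ly86 to Pirb, and the red and blue bars differ most at Ebf1. The assays were chosen after their values were seen, and Kit, Bcl11a and Notch1 are among the near-universal assays by which the 5 cells were chosen.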

How the data were processed

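Cells were sorted into lysis buffer, and reverse transcription, pre-amplification and BioMark reading used 96 assays, per the labels' protocols. The deposited values are the authors' Ct in cycles, not normalized; the sources used here do not give the software or threshold that set them. They number 36864, from 5.71 to 40, with 58.2% at 40. Columns were tied to samples by title. Of the 96 assay names, 47 matched a symbol and 34 a synonym in a RefSeq table of GRCm38.p6, CD115 among the synonyms; 15 keep the file's name.

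A product was a Ct below 28 and a level 28 minus Ct. Quality control kept single-cell wells in which more than 50% of 4 reference genes and 50% or more of the plate's median assay number gave a product; it removed 13 of 360 wells, 10 of them without any product. Some items are not reported here.

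Co-detection was each plate's log2 odds ratio (0.5 added per count), in an intercept-only limma model over all pairs of 49 assays, those found in 5% to 95% of cells with products in under 4 no-RT wells. Of the 95 other assays 48 were therefore tested; 16 were in over 95% and 15 in under 5% of cells, 8 in no cell and 8 in 4 or more no-RT wells. Levels were compared where at least 5 cells of each kind had a product on every plate. Limma 3.58.1 in R 4.3.3 used Benjamini-Hochberg adjustment at 0.05; other tests used scipy 1.17.1, and the scripts were tested on simulated data. Pre-amplification multiplies every product, so a missing product means only that none was detected, and the sensitivity of each assay is unknown; exact intervals cover counting error only. The named genes are those past the threshold, the 5 assays per direction with the largest log2 odds ratio of one sign on all plates, members of the fixed lists, and up to 3 level differences per direction of one sign on all plates. The members and lists were chosen with earlier results of these data known, so the pairs with Ebf1 and Ly6d are no independent support. The plate pairs both kinds of cells, since it marks a shared chip per the labels; it is held within each odds ratio and level difference, and the fits of shares with and without it as a block were alternatives.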

Additional observations from a re-analysis of the deposited data

Results flagged for a closer look

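Of 42 values tested over 4 plates, 3 had 1 plate far from the others, where chance gives about 1 in 20. The 10-cell well of P0 had a Csf1r Ct of 40, while the others were at 14.7 to 15.0. The log2 odds ratio of Csf1r with Il3ra was 0.63 on P0 and between -0.67 and -0.49 on the other plates. In cells with Ebf1 and Ly6d and no Pax5, 21.9% had Csf1r on P1, against 8.57% to 10.3% on the other plates. Outside the cells compared, 2 of the 13 single-cell wells left out by quality control gave a Csf1r product, with Ct 16.5 on P0 and 13.9 on P3, while the no-RT wells gave none.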

How the results depend on the processing

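The share of cells with Csf1r stayed above the no-RT wells under all alternatives run, and neither yield comparison passed; with a plate left out the smallest p possible is 0.1, and with the plate as a block it is also above 0.05, so those alternatives could not pass. Ebf1, Ly6d and Il2rb kept a log2 odds ratio below 0 under every alternative. The count of 3 lower assays became 5 (with Cd34 and Cd244a) with 1 added in place of 0.5, 5 within strata of the reference level and 5 in a fit over the pairs with Csf1r alone, was 4 within strata of the number of products (with Cd34) and 4 without quality control (with Mef2c), and was 0 to 0 with any plate left out. The count of 0 higher assays became 1 over assays in 10% to 90% of cells (Cd4), and 2 (Cd4 and Cd38) with 1 added, without quality control, within strata of the number of products or of the reference level, and in the fit over the pairs with Csf1r alone. Over all pairs, 35 were called positive and 19 negative, against 20.3% and 1.5% of 1596 pairs without quality control, 67 and 41 with 1 added, 56 and 38 or 65 and 40 within strata, and 8 to 27 and 3 to 16 with a plate left out. Centring each plate on its mean pair moved the positive share of all calls from 64.8% to 53.5%. Some log2 odds ratios that had not passed changed sign. With a plate left out, Bst2 ran from -0.0064 to 1.36 and Itgax from -6.3e-05 to 0.52 (lowest without P0), Cd180 from -0.51 to 0.14 (highest without P2), Cd72 from -0.64 to 0.082 (above 0 without P2 or P3) and Gfi1 from -0.11 to 0.26 (below 0 without P2 or P3). Cd72 was 0.0023 without quality control, and Gfi1 was -0.049 with centred plates, -0.022 within strata of the number of products and -0.033 within strata of the reference level. In the alternative added after seeing the data, without the 6 cells, Cd72 turned to 1.03. The level comparison gave 0 to 1 assay with a plate left out. In the fit of arcsine shares the difference for Ebf1 was -0.346 with the plate as a replicate block and without it (limma adjusted p = 0.000107 and 0.0061), and the block changed no call. The cause of these changes was not tested.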
